A study of Mus musculus with 64 samples.

Results

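The genes described here encode the enzymes that write and erase histone acetylation and methylation and those that slide or evict nucleosomes. They were taken by symbol from the table of 5647 genes. Kdm5c, Kdm5d and Kdm6a were to be left out, but none of them was in the table. Taking every gene whose symbol starts with Hdac, Kdm, Kmt, Smarc, Chd, Kat, Sirt or Setd followed by a letter or digit gave 34 genes. By assigned role, 3 were histone deacetylases, 3 sirtuins, 4 acetyltransferases, 6 methyltransferases, 7 demethylases, 5 SWI/SNF subunits and 4 CHD remodellers. Kmt2e was counted with the methyltransferases as a SET-domain protein. The symbols also brought in 2 genes whose proteins do not act on chromatin, Katna1, a subunit of the microtubule-severing enzyme katanin, and Setd3, which methylates actin.

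All mice were C57BL/6J, an inbred strain, and the microglia of each were sorted from the brain as live CD11b+ CD45low cells and measured by bulk RNA sequencing in 64 libraries. LPS, a bacterial cell wall component that activates the innate immune system, was injected into females of 3 months (3 mice), 14 months (5 mice) and 24 months (3 mice). PBS, the vehicle, was given to females of 3 months (4 mice), 6 months (2), 9 months (3), 12 months (4), 14 months (5), 16 months (5) and 24 months (3). It was also given to males of 3 months (4 mice), 6 months (4), 9 months (4), 12 months (2), 16 months (4), 19 months (5) and 24 months (4). None of the 64 libraries came from LPS-treated males. The PBS females of 3, 14 and 24 months served both in the ageing series and as the LPS controls, so the changes with age and with LPS share these mice.

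Values are FPKM, reads per length of transcript and per depth, that the authors adjusted for batches and rounded to whole numbers. Whole numbers are coarse steps for genes as low as most of these. Groups were compared with limma on log2(value + 1), and a gene passed at a p under 0.05 adjusted over all 5647 genes and a fold over 1.5. Fold changes on this scale understate the change of low genes, and the p-values measure the spread between these mice. All 12 homeostatic microglia markers were measured and high, with sums of 26629 to 28185 in 3-month PBS females and 15494 to 27312 in all other libraries. The 14 neutrophil markers were present in every library at sums of 508 to 32498. In bulk samples, fewer cells of a type and less RNA per cell cannot be told apart.

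Acetyl groups on histone tails loosen chromatin and are read by bromodomain proteins, and histone deacetylases and the NAD-dependent sirtuins remove them. Methyl groups mark active or silent genes according to the lysine that carries them and are set by SET-domain enzymes and removed by JmjC demethylases. In macrophages, to which microglia are related, inflammatory signals rearrange these marks at enhancers and promoters, and the demethylase Kdm6b is known as a gene that such signals induce.

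Among the genes of the table, the 34 genes were mostly of low abundance. The median of their means over the 64 libraries was 17.3 FPKM, against 26.3 FPKM over all genes, and 7 of the 34 lay above that value for all genes. The sirtuins Sirt7, a nucleolar deacetylase tied to ribosomal RNA synthesis, and Sirt2, a largely cytoplasmic deacetylase of tubulin, were the highest, with means of 87.9 and 87.9 FPKM. Kmt2e, a SET-domain protein that binds methylated histone H3, followed at 63.5 FPKM, Hdac1, a deacetylase of the Sin3 and NuRD complexes, at 44.8 FPKM, and Smarcb1, a core subunit of SWI/SNF, at 39.8 FPKM. The lowest were Kdm3b, a demethylase of a silencing mark, and Kdm5b, which removes methyl groups from active promoters, at 10.6 and 10.6 FPKM, and Setdb1, a methyltransferase that silences retroelements, at 11.7 FPKM. These low values lie near the authors' filter, which removed genes averaging under 10 FPKM. None of the 2176 values of these genes was 0.

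**Figure D1:**
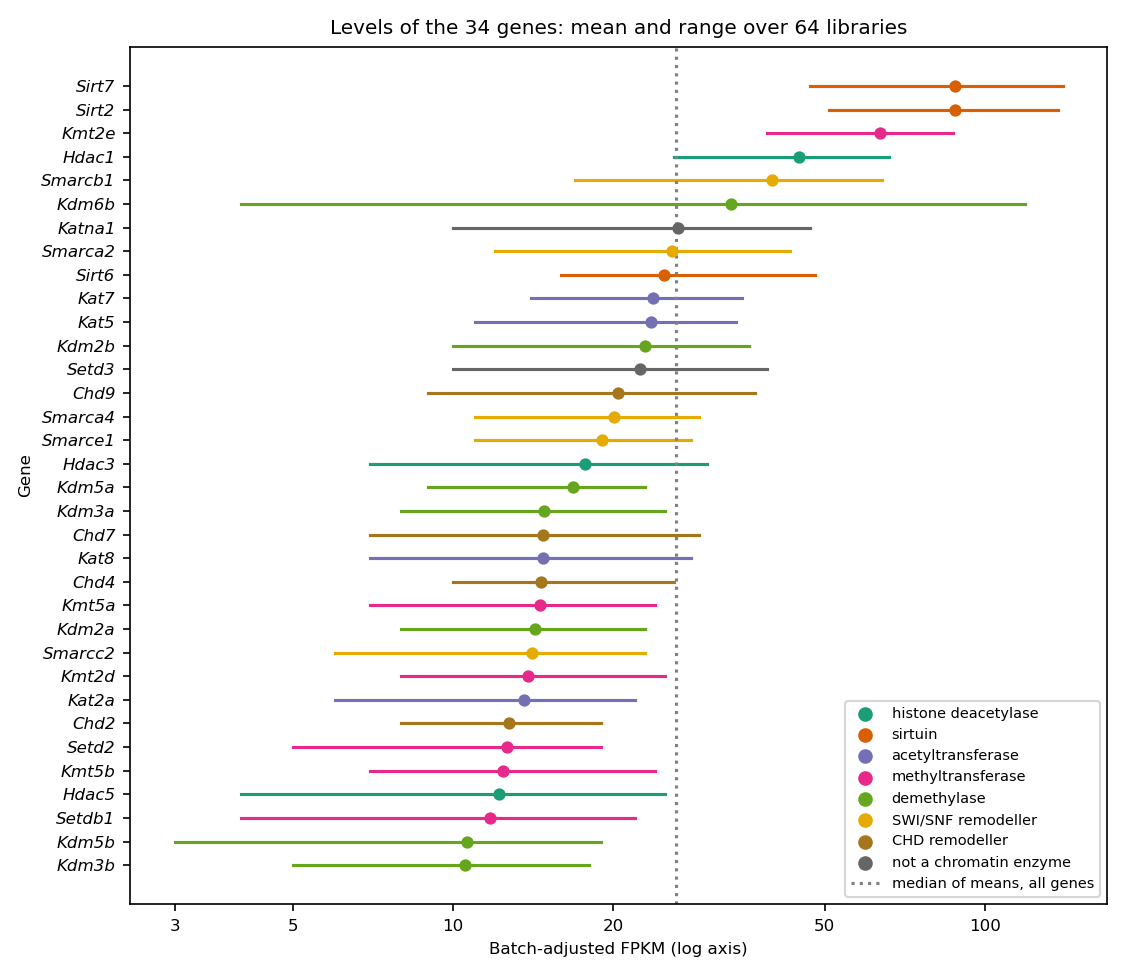
Mean (point) and range (line) of each of the 34 genes over 64 libraries in batch-adjusted FPKM on a log axis, coloured by role, with the median of the means of all genes (26.3 FPKM) dotted. Sirt7 and Sirt2 are highest at 87.9 FPKM each, and Kdm6b spans the widest range, 4 to 119 FPKM.

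The genes varied between mice of a group about as much as all genes did. The SD within groups, pooled over the 17 groups on the log2 scale, had a median of 0.31 over the 34 genes and 0.32 over all genes. Sirt2 was among the steadiest, with an SD of 0.19, and 96.6% of all genes varied more. Kdm6b, which encodes the demethylase JMJD3 that removes the Polycomb mark from histone H3, varied most, with an SD of 0.67, and 3.44% of all genes varied more. Its values ran between 4 FPKM in a 9-month PBS female and 119 FPKM in a 6-month PBS male.

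Of the 34 genes, Kdm6b had the largest response to LPS. In 3-month females it measured 43, 50 and 47 FPKM in LPS mice, against 13, 12, 14 and 14 FPKM in PBS mice. Every LPS mouse was above every PBS mouse, and the means were 46.7 ± 3.51 (SD, n = 3) and 13.3 ± 0.957 FPKM (SD, n = 4). Kdm6b rose 3.52-fold by the means, with a log2 fold change of 1.74 ± 0.26 (SE, limma, adjusted p = 7.49e-05).

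In 24-month females Kdm6b measured 59, 51 and 31 FPKM in LPS mice, against 18, 16 and 20 FPKM in PBS mice. These groups did not overlap either, although the lowest LPS mouse was nearer to the PBS mice than at 3 months. The log2 fold change was 1.29 ± 0.28 (SE, limma, adjusted p = 0.00616), and the gene rose. At both ages Kdm6b passed without any 1 of the mice, with adjusted p between 0.000255 and 0.00118 at 3 months and between 0.00239 and 0.037 at 24 months (limma).

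In 14-month females Kdm6b measured 79, 41, 55, 46 and 55 FPKM in LPS mice, against 17, 47, 29, 32 and 39 FPKM in PBS mice. The groups overlapped here, with the lowest LPS mouse at 41 FPKM and the highest PBS mouse at 47 FPKM. Its log2 fold change of 0.77 ± 0.21 (SE) did not pass (limma, adjusted p = 0.0531). It passed without LPS replicate 2 or without PBS replicate 2 or 5, with log2 fold changes of 0.87, 0.92 and 0.85 and adjusted p of 0.0411, 0.0345 and 0.036.

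The means of Kdm6b in LPS mice were 46.7, 55.2 and 47 FPKM at 3, 14 and 24 months, against 13.3, 32.8 and 18 FPKM in PBS mice of those ages. The difference between the responses was tested as an interaction. The response at 14 months was lower than that at 3 months by a log2 difference of -0.97 ± 0.33 (SE), which did not pass (limma, adjusted p = 0.268), and that at 24 against 3 months differed by -0.45 ± 0.38 (SE, adjusted p = 0.683). No member passed either interaction, against 0.301% of all genes for 14 against 3 months and 0% for 24 against 3 months. An unadjusted p under 0.05 was found for 1 and 4 members, and the share of all genes at that threshold was not computed.

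**Figure D2:**
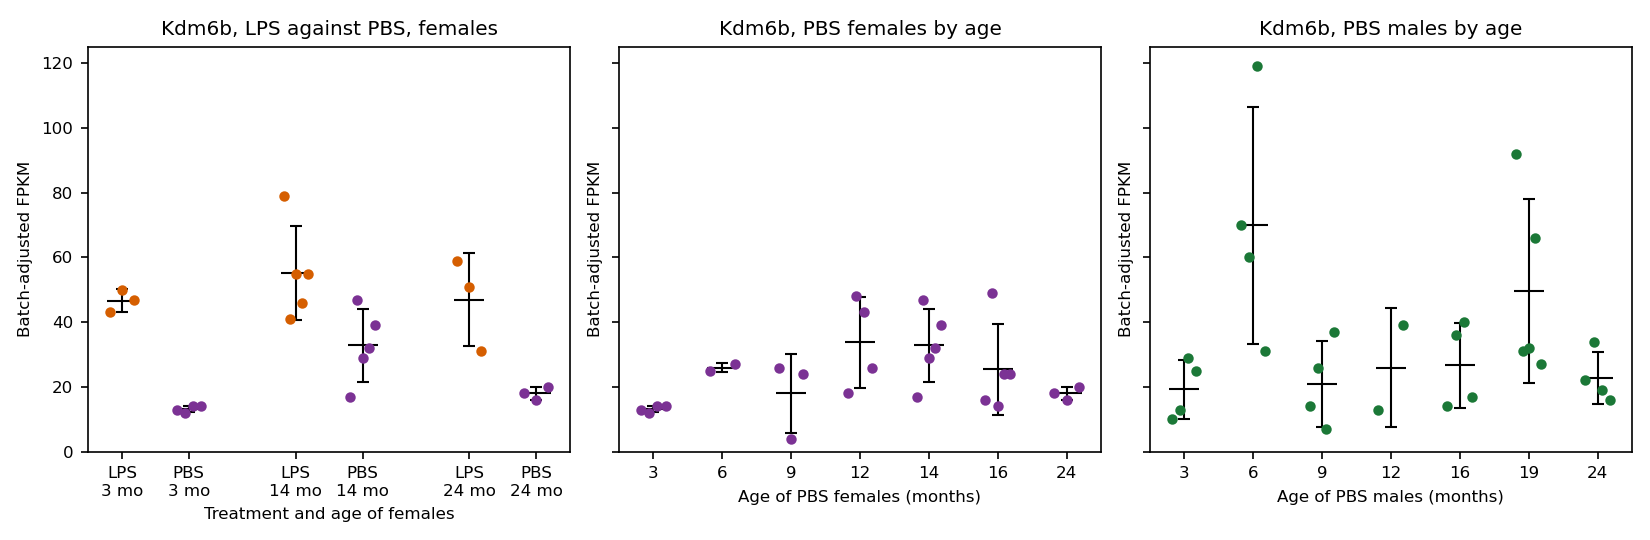
Kdm6b in batch-adjusted FPKM, 1 point per mouse with the mean and SD as bars, for LPS and PBS females of 3 ages (left), PBS females by age (middle) and PBS males by age (right). LPS mice lie above PBS mice with no overlap at 3 and 24 months, and PBS males of 6 and 19 months spread over 31 to 119 and 27 to 92 FPKM.

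Of a fixed list of 12 genes of the LPS response (among them Il1b, Cxcl2 and Il1rn), 11, 4 and 4 passed and were higher at 3, 14 and 24 months. The sums of the 14 neutrophil markers were 2221 to 3871 in LPS mice, against 7074 to 18706 in PBS mice at 3 months, where 9 of the 14 were lower in LPS mice. At 24 months the sums were 4112 to 16290 in LPS mice, against 3278 to 8624 in PBS mice, and 4 of the 14 were higher. Their part in the Kdm6b result was not tested at either age.

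The LPS calls were also counted over all roles, beside the share of all genes. A gene that did not pass may still have changed. At 3 months 2 of the 34 genes passed, against 11.2% of all genes, at 14 months none, against 1.81%, and at 24 months 3, against 9.7%. At each age the share of the members (5.88%, 0% and 8.82%) was no larger than that of all genes. At 14 months 4 of the 34 had an unadjusted p under 0.05, a threshold at which the share of all genes was not computed. The median log2 fold change of the members at 3, 14 and 24 months was -0.08, 0.03 and 0.16, against -0.14, 0.02 and -0.15 over all genes. Relative to the median of all genes, the log2 fold change of Kdm6b was 1.88 at 3 months and 1.44 at 24 months.

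Among the remodellers, Chd9, a chromodomain ATPase, fell with LPS at 3 months. It measured 22, 20 and 14 FPKM in LPS mice, against 32, 33, 33 and 34 FPKM in PBS mice. The groups did not overlap, and the 4 PBS mice lay within 2 FPKM of each other. The log2 fold change was -0.81 ± 0.27 (SE, limma, adjusted p = 0.0486). The call was lost without any 1 of the mice except LPS replicate 1, with log2 fold changes between -0.87 and -0.63 and adjusted p up to 0.238. It was also lost with both scalings of the libraries (adjusted p = 0.108 and 0.128). Of the 12 microglia markers 5 were also lower, with sums of 19309 to 23125 in LPS mice and 26629 to 28185 in PBS mice, and their part in this result was not tested.

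The 34 genes varied least in the 3-month PBS females, with a median SD of 0.15 on the log2 scale, against 0.17 over all genes in those mice, and their median microglia marker sum of 27533 was the highest of the 17 groups. Chd9 measured 15.6 ± 3.78 FPKM in LPS mice and 19.4 ± 6.54 FPKM in PBS mice at 14 months (SD, n = 5 each). At 24 months it measured 20.3 ± 4.04 FPKM in LPS mice and 18.3 ± 5.13 FPKM in PBS mice (SD, n = 3 each), and neither age passed.

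Chd2, a remodeller of the same family, was higher in LPS mice than in PBS mice at 24 months. It measured 18, 15 and 12 FPKM in LPS mice, against 8, 8 and 8 FPKM in PBS mice. The groups did not overlap, and the log2 fold change was 0.81 ± 0.22 (SE, limma, adjusted p = 0.0207). The call was lost without LPS replicate 1 (adjusted p = 0.0963) or PBS replicate 1 or 2 (0.0605 and 0.0557). It was also lost with only these groups fitted (limma, adjusted p = 0.202). The PBS mean of 8 FPKM was the lowest of all groups. Means in LPS mice were 14, 16 and 15 FPKM at 3, 14 and 24 months, against 12, 12.6 and 8 FPKM in PBS mice. At 14 months Chd2 measured 15 to 18 FPKM in LPS mice (median 15) and 11 to 14 FPKM in PBS mice (median 13). The groups did not overlap, but the log2 fold change of 0.32 did not pass (limma, adjusted p = 0.371).

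Sirt7 fell with LPS at 24 months. It measured 73, 48 and 86 FPKM in LPS mice, against 119, 120 and 111 FPKM in PBS mice. The groups did not overlap, and the log2 fold change was -0.79 ± 0.23 (SE, limma, adjusted p = 0.0315). The call was lost without LPS replicate 1 or 2 (adjusted p = 0.0578 and 0.144) or PBS replicate 1 or 2 (0.0906 and 0.0811), and after median-ratio or total scaling (0.0564 and 0.0732). At 3 months Sirt7 measured 86, 63 and 89 FPKM in LPS mice, against 110, 112, 103 and 113 FPKM in PBS mice. These groups did not overlap, but the log2 fold change of -0.48 did not pass (limma, adjusted p = 0.152).

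Markers of other cells also moved with LPS at 24 months. Of 5 T, NK and B cell markers 2 were lower, with sums of 126 to 275 in LPS mice and 291 to 425 in PBS mice. Of 3 oligodendrocyte markers 1 was lower, with sums of 910 to 1151 in LPS mice and 1577 to 1815 in PBS mice. Their part in the Sirt7 and Chd2 results was not tested.

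Hdac1 met the p threshold at 14 months but not that of the fold. It measured 43, 53, 64, 54 and 62 FPKM in LPS mice, against 35, 31, 43, 41 and 36 FPKM in PBS mice. The groups met at 43 FPKM, and the log2 fold change was 0.55 ± 0.15 (SE, limma, adjusted p = 0.0446), just under a fold of 1.5. It passed both thresholds without LPS replicate 1 (log2 fold change 0.64) or PBS replicate 3 (0.61). Of the other 2 deacetylases, Hdac3, the catalytic subunit of the NCoR complex, had log2 fold changes of 0.05, 0.51 and -0.83 at the 3 ages. None of these passed.

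None of the other 6 demethylases passed at any age. At 3 and 14 months their log2 fold changes were all below 0, and at 24 months 3 of the 6 were above 0 (Kdm2a at 0.20, Kdm5a at 0.26 and Kdm5b at 0.51). Kdm3a, an H3 demethylase of a silencing mark, measured 13.3 ± 4.51 FPKM in LPS mice (SD, n = 3) and 20.3 ± 2.06 FPKM in PBS mice (SD, n = 4) at 3 months. Its log2 fold change of -0.61 did not pass (limma, adjusted p = 0.0719). Kdm5b measured 10, 11 and 9 FPKM in LPS mice against 17, 15, 17 and 16 FPKM in PBS mice at 3 months, and 14, 14 and 13 FPKM in LPS mice against 9, 9 and 10 FPKM in PBS mice at 24 months. The groups did not overlap at either age and lay in opposite order. The difference of the 2 responses was 1.16 ± 0.40 on the log2 scale (SE) and did not pass (limma, adjusted p = 0.268).

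No acetyltransferase, methyltransferase or SWI/SNF subunit passed at any of the 3 ages. The methyltransferases had 5 of 6 log2 fold changes above 0 at 24 months, with a median of 0.42, and 1 of 6 above 0 at 14 months, with a median of -0.20. Setdb1 was the exception at 24 months and measured 10 ± 3.61 FPKM in LPS mice and 14 ± 2.65 FPKM in PBS mice (SD, n = 3 each).

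**Figure D3:**
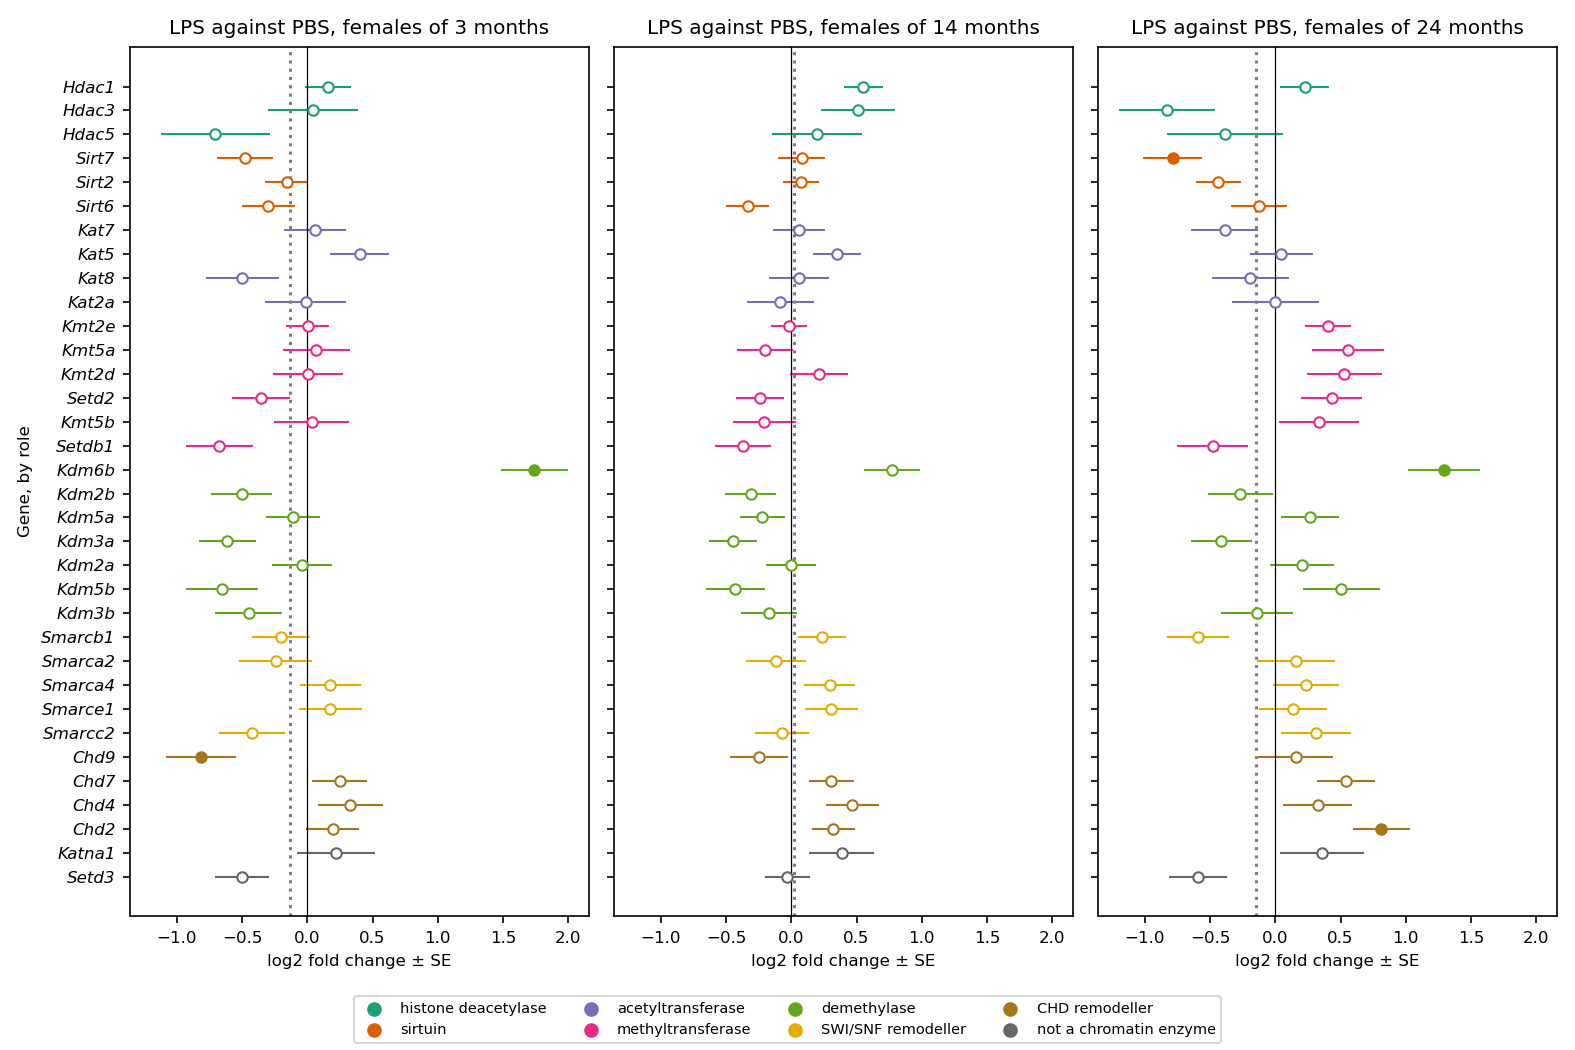
Log2 fold change of LPS against PBS with its SE for each of the 34 genes, ordered by role, at 3, 14 and 24 months. Filled points passed (Kdm6b and Chd9 at 3 months, none at 14 months, and Kdm6b, Chd2 and Sirt7 at 24 months), and the dotted lines mark the median of all genes.

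In PBS females the tests over 7 ages asked whether a gene differed at any age. Of the 34 genes 2 passed, Kdm2b and Kdm5b, against 14.8% of all genes, and both had their largest change downward. Kdm2b, which binds CpG islands and brings in a Polycomb complex, had its lowest values at 16 months, with 15, 17, 15, 17 and 21 FPKM, against 29, 29, 26 and 31 FPKM at 3 months. Every 16-month female was below every 3-month female. The log2 fold change was -0.73 ± 0.18 (SE, limma, adjusted p = 0.00913), and over the 7 ages the adjusted p was 0.0298. At 24 months Kdm2b was 34, 19 and 32 FPKM, a range that holds all values of 3 months.

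Kdm5b had its lowest values at 9 months, with 7, 5 and 10 FPKM, against 17, 15, 17 and 16 FPKM at 3 months. At each later age but 12 months all females were also below the 3-month range, with 8 to 11 FPKM at 14 months, 8 to 13 FPKM at 16 months and 9 to 10 FPKM at 24 months. At 9 months the log2 fold change was -1.09 ± 0.26 (SE, limma, adjusted p = 0.0282), and that at 24 months was -0.74 ± 0.26 (SE), which did not pass (adjusted p = 0.116). Over the 7 ages the adjusted p was 0.0421. Both F-test calls were lost under either scaling of the libraries, with adjusted p of 0.0719 and 0.0674 for Kdm2b and 0.0786 and 0.109 for Kdm5b. The call of Kdm5b at 9 months was lost without 9-month replicate 2 or any 1 of the 3-month mice, with adjusted p up to 0.0773. Over the 7 ages, leaving out 1 mouse ended the call of Kdm2b in 7 of 26 fits, for mice of 3 and 16 months, and that of Kdm5b in 16 of 26 fits.

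Against 3 months, 4 of the 34 genes passed at 16 months, all lower, against 9.01% of all genes. At 9 months 1 passed (2.66% of all genes), and none passed at 6 months (0.301%), 12 months (9.07%), 14 months (3.31%) or 24 months (2.09%). Unadjusted p was under 0.05 for 0, 7, 7 and 6 members at 6, 12, 14 and 24 months. The share of all genes at that unadjusted threshold was not computed, so these counts show nothing particular to the members. The median of all genes was itself lower than at 3 months at 6 to 16 months, with log2 fold changes of -0.19 to -0.16, and close to it at 24 months (-0.02). Relative to it 14 of the 34 members were higher and 20 lower at 16 months. Beside Kdm2b, the members that fell at 16 months were Setdb1, Sirt7 and Kdm3a.

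Setdb1 measured 4, 14, 8, 12 and 7 FPKM at 16 months, against 18, 14, 17 and 22 FPKM at 3 months. The groups met at 14 FPKM, and the log2 fold change was -0.99 ± 0.27 (SE, limma, adjusted p = 0.0169). Sirt7 measured 68, 74, 62, 72 and 72 FPKM at 16 months, against 110, 112, 103 and 113 FPKM at 3 months, with no overlap. Its log2 fold change was -0.65 ± 0.19 (SE, limma, adjusted p = 0.0316), but at 24 months it was 119, 120 and 111 FPKM. Kdm3a measured 16, 8, 12, 15 and 15 FPKM at 16 months, against 20, 23, 18 and 20 FPKM at 3 months, also with no overlap (log2 fold change -0.61 ± 0.20, SE, limma, adjusted p = 0.0437).

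None of these 4 calls at 16 months held under median-ratio scaling (adjusted p = 0.0475 for Kdm2b, with a fold then under 1.5, and 0.0505, 0.137 and 0.148 for Setdb1, Sirt7 and Kdm3a). Leaving out single mice ended the calls of Setdb1 in 2 of 9 fits, Sirt7 in 5 and Kdm3a in 6. The 5 libraries of 16 months hold no values between 0 and 1 and the 4 of 3 months do, so age and the way these libraries were made or adjusted cannot be told apart here. Of the 12 microglia markers 7 were lower at 16 months, and their part in these results was not tested.

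Kdm6b in PBS females had its lowest group mean at 3 months, 13.3 FPKM, with a range of 12 to 14 FPKM. It was 25 and 27 FPKM at 6 months, 4 to 26 FPKM at 9 months, 18 to 48 FPKM at 12 months, 17 to 47 FPKM at 14 months, 14 to 49 FPKM at 16 months and 16 to 20 FPKM at 24 months. At 12 and 14 months every mouse was above every 3-month mouse, with log2 fold changes of 1.19 ± 0.41 and 1.18 ± 0.39 (SE). Neither passed (limma, adjusted p = 0.0605 and 0.0777), nor did Kdm6b over the 7 ages (adjusted p = 0.0979). Of the 12 genes of the LPS response, all 12 passed over the 7 ages in females and 8 in males, each with its largest change upward, and their part in the Kdm6b values was not tested. At 12 months Kdm6b passed when 12-month replicate 1 was left out, with a log2 fold change of 1.45 and an adjusted p of 0.0498. At 14 months it passed without 14-month replicate 1, with a log2 fold change of 1.38 and an adjusted p of 0.0486.

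For Chd9, all values at 6 to 24 months lay below the 3-month range of 32 to 34 FPKM. Its means were 22, 21, 19, 19.4, 21.6 and 18.3 FPKM at 6, 9, 12, 14, 16 and 24 months. The log2 fold change was -0.85 ± 0.31 (SE) at 24 months, and no age passed (limma, adjusted p between 0.0591 and 0.549). In a fit of the 3- and 24-month groups alone both Chd9 and Kdm5b passed, with adjusted p of 0.0148 and 0.0265 (limma). The share of all genes that passed in that fit is not given here.

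**Figure D4:**
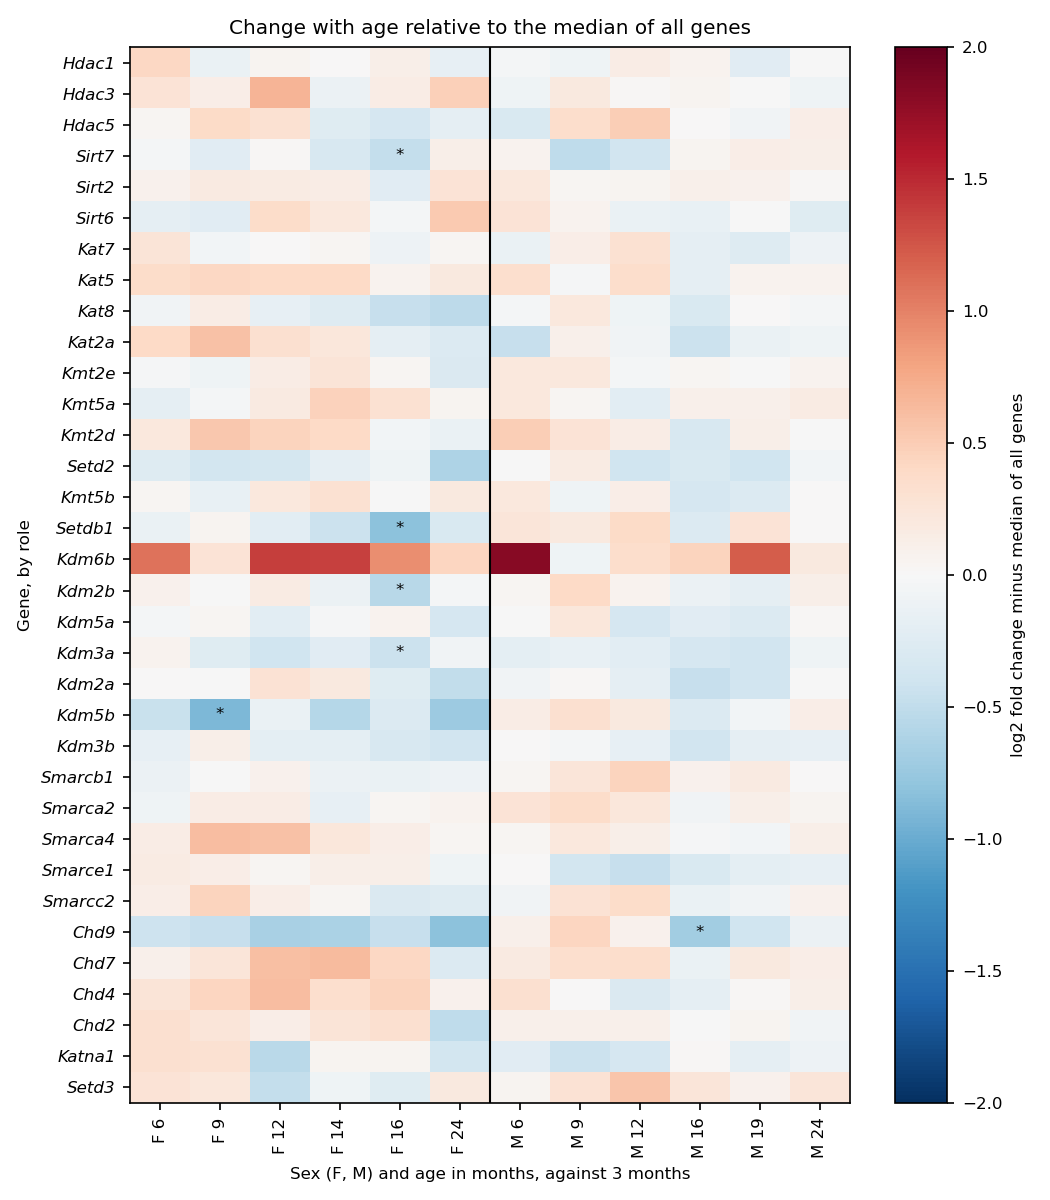
Log2 fold change of each of the 34 genes at 6 to 24 months against 3 months in PBS females (F) and PBS males (M), minus the median of all genes in the same comparison, with stars where the gene passed. The largest values are those of Kdm6b at 6 months in males (1.82) and at 12 months in females (1.38), and the stars stand at 9 and 16 months in females and at 16 months in males.

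In PBS males 2 of the 34 genes passed over 7 ages, Chd9 and Kdm6b, against 8.36% of all genes. Chd9 measured 12, 13, 12 and 11 FPKM at 16 months, against 20, 15, 30 and 18 FPKM at 3 months. Every 16-month male was below every 3-month male, with a log2 fold change of -0.70 ± 0.21 (SE, limma, adjusted p = 0.039), and over the 7 ages the adjusted p was 0.00458. The highest values were those of 9 months, with 28, 29, 24 and 37 FPKM, and at 24 months Chd9 measured 24, 22, 16 and 18 FPKM.

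The F-test call of Chd9 held without any 1 male, although without 3-month replicate 3 its largest change was at 9 months and upward, at 0.70. This F-test call was lost within each set of libraries. The adjusted p was 0.214 in those that hold no values between 0 and 1 and 0.631 in those that do (limma). It was also lost with a pseudocount of 5, where the largest log2 fold change was -0.57, a fold under 1.5. The call of 16 against 3 months was lost without any 1 of the mice except 3-month replicate 2, with log2 fold changes between -0.75 and -0.52 and adjusted p up to 0.208. Within the male libraries that hold no values between 0 and 1 (3-month replicates 1 and 2 and all of 12, 16 and 24 months, with 4 of 19 months), the log2 fold change at 16 months was -0.50 (adjusted p = 0.39). Of the 14 neutrophil markers 11 were higher at 16 months than at 3 months, with sums of 9421 to 32498 at 16 months and 2870 to 4762 at 3 months. Of 5 monocyte markers 5 were higher, and of 5 T, NK and B cell markers 4 were higher and 1 lower. Of the 12 microglia markers 4 were lower, and of the 12 genes of the LPS response 8 were higher. The part of these genes in the Chd9 result was not tested.

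Kdm6b measured 70, 60, 119 and 31 FPKM at 6 months, against 10, 13, 29 and 25 FPKM at 3 months. Every 6-month male was above every 3-month male, but the 6-month values spanned 31 to 119 FPKM. The log2 fold change of 1.78 ± 0.48 (SE) did not pass in that comparison (limma, adjusted p = 0.448), in which no gene passed (0% of all genes), while over the 7 ages the adjusted p was 0.0447. At 9 months Kdm6b was 14, 26, 7 and 37 FPKM, and at 19 months it was 92, 31, 32, 66 and 27 FPKM.

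The call over 7 ages was lost in 15 of the 27 fits without 1 male, with adjusted p up to 0.119 without 6-month replicate 3. It was also lost within each set of libraries, with adjusted p of 0.459 in those that hold no values between 0 and 1 and 0.14 in those that do. At 3 months the 2 males of the first set had 10 and 13 FPKM, and those of the second had 29 and 25 FPKM. Neutrophil marker sums at 6 months were 2260 to 3491.

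At 16 against 3 months Chd9 was the 1 member that passed in males, against 6.29% of all genes. No member passed at 6 months (0% of all genes), 9 months (0.0354%), 12 months (0.903%), 19 months (3.05%) or 24 months (2.85%). At these ages unadjusted p was under 0.05 for 3, 3, 3, 1 and 0 members, and the share of all genes at that threshold was not computed. The member with the lowest p at 24 months was Setd3, at 29, 22, 25 and 22 FPKM against 20, 16, 19 and 21 FPKM at 3 months. The groups did not overlap, and the log2 fold change of 0.35 ± 0.18 (SE) did not pass (limma, adjusted p = 0.427).

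In every role but the demethylases and, in males, the CHD remodellers, the member with the lowest F-test p over the ages did not pass. In females these were Sirt7 (adjusted p = 0.054), Setdb1 (0.0821), Setd3 (0.107), Hdac3 (0.131), Chd7 (0.144), Kat2a (0.221), the acetyltransferase of the SAGA complex, and the SWI/SNF subunit Smarcc2 (0.272). In males they were Sirt7 (0.115), Kat5 (0.118), the acetyltransferase of the NuA4 complex, Setd2 (0.152), the methyltransferase that follows RNA polymerase, Smarcc2 (0.294), Setd3 (0.296) and Hdac5 (0.325). All of these p-values are those of limma.

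**Figure D5:**
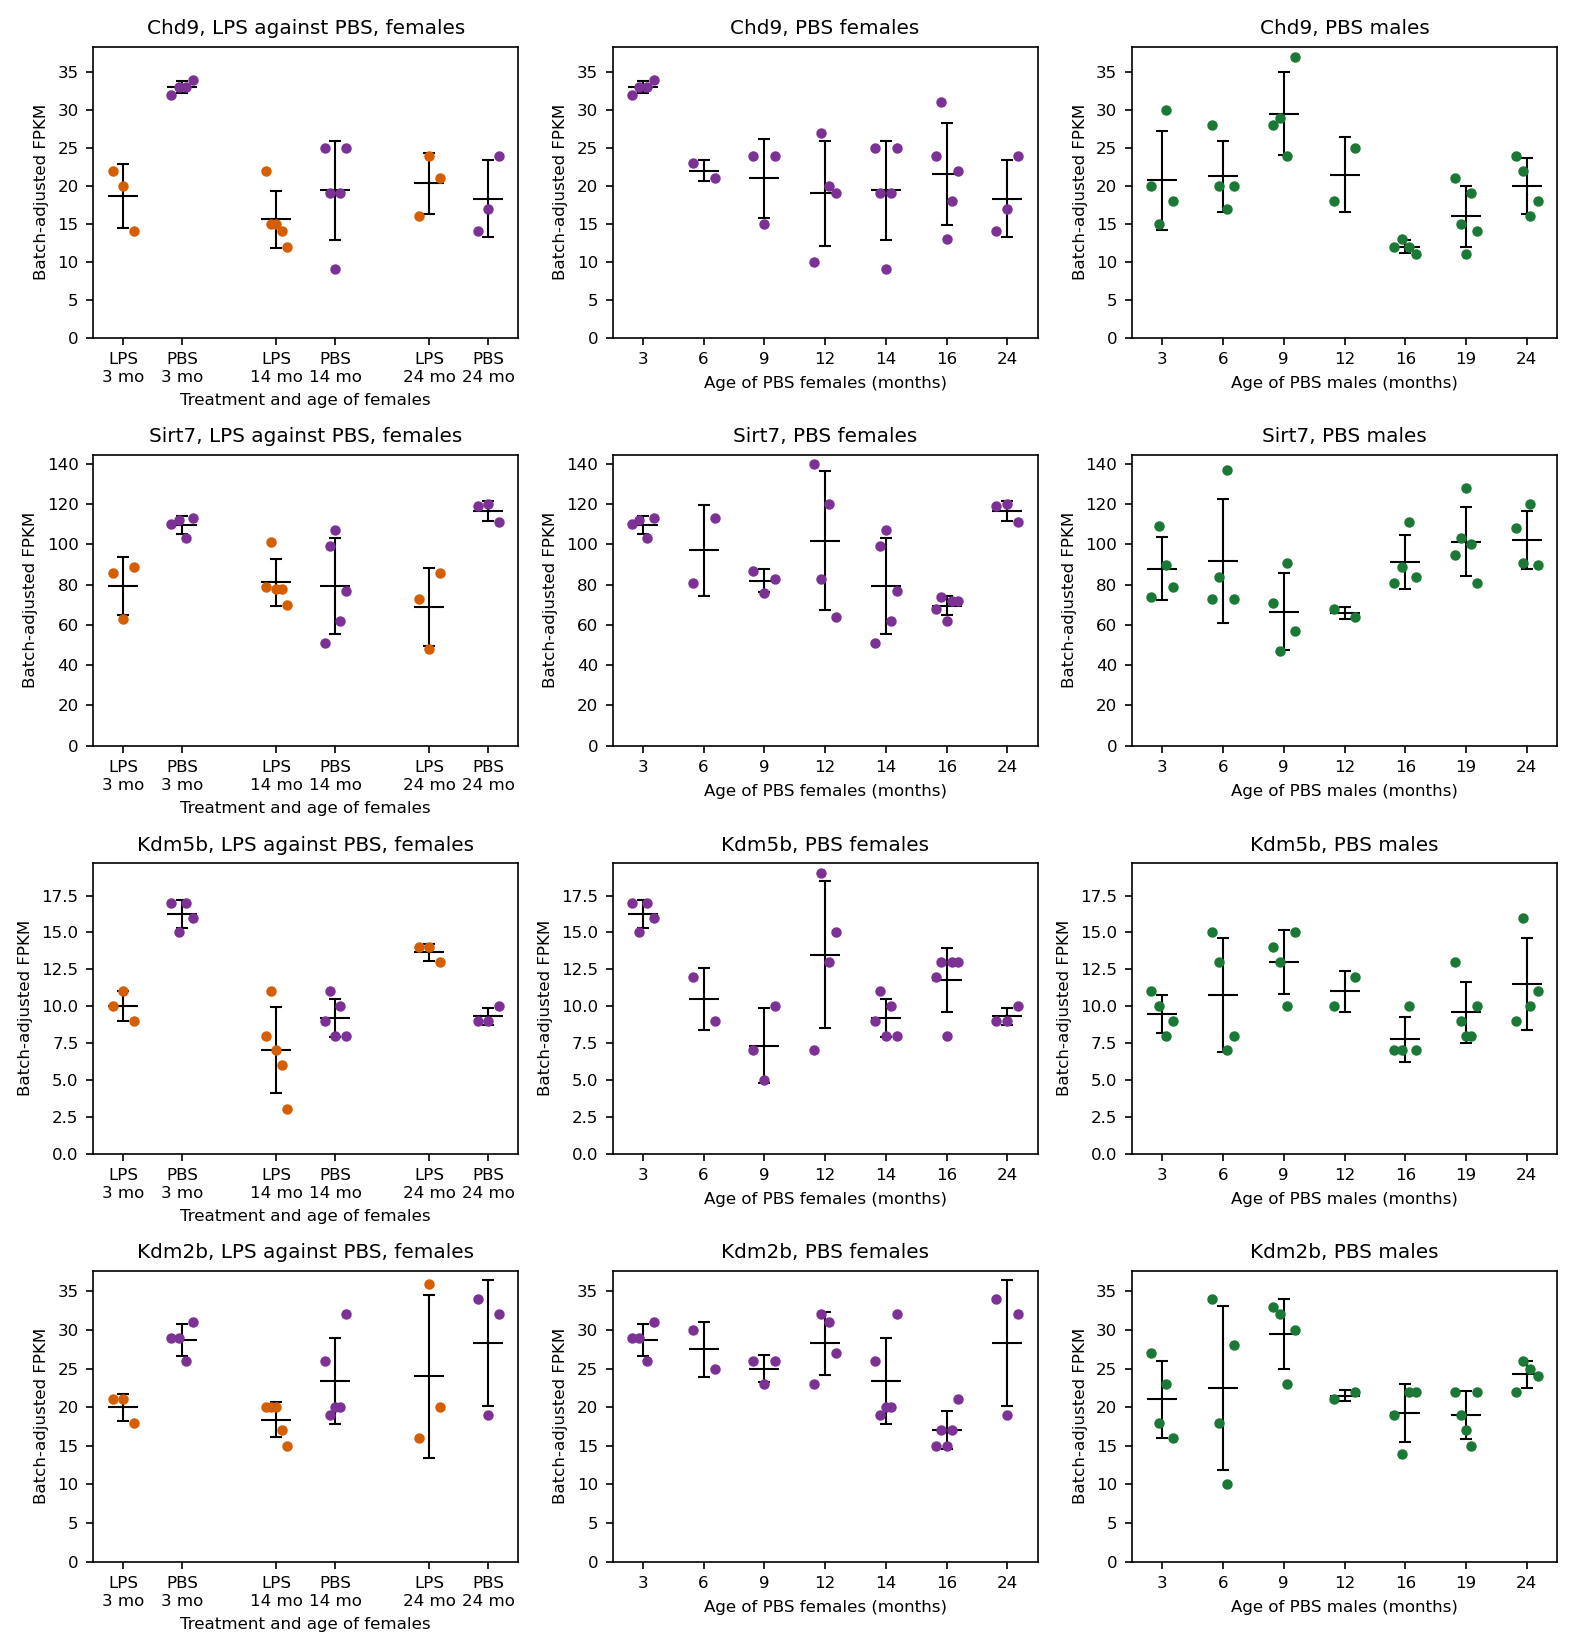
Batch-adjusted FPKM of Chd9, Sirt7, Kdm5b and Kdm2b (rows) for LPS and PBS females of 3 ages (left), PBS females by age (middle) and PBS males by age (right), 1 point per mouse with the mean and SD as bars. Chd9 in 3-month PBS females lies at 32 to 34 FPKM, above all other PBS females.

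No member passed between females and males when averaged over the 6 shared ages, against 0.23% of all genes. At 12 and 24 months all female libraries hold values between 0 and 1 and no male library does. Sex and the way the libraries were made or adjusted cannot be told apart at those ages. At 3 months all females and male replicates 3 and 4 hold such values, and male replicates 1 and 2 do not. An unadjusted p under 0.05 was found for 6 members, again without the share of all genes at that threshold. The lowest p was that of Hdac1, with a mean of the age means of 40.9 FPKM in females and 48.9 FPKM in males. Its log2 difference was -0.27 ± 0.08 (SE, limma, adjusted p = 0.0847). Setdb1 followed with 14.1 FPKM in females and 10.96 FPKM in males, a log2 difference of 0.31 ± 0.11 (SE, limma, adjusted p = 0.163). Chd9 measured 32, 33, 33 and 34 FPKM in 3-month females, against 20, 15, 30 and 18 FPKM in 3-month males, with no overlap. Its log2 difference there was 0.69 ± 0.24 (SE, limma, adjusted p = 0.157).

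Beyond the 34, a list of 93 measured chromatin genes (complex partners, Polycomb, other histone enzymes, bromodomain readers and DNA methylation) was followed in the same fits. With LPS 2 were higher and 3 lower at 3 months, so that 5 of 93 passed, against 11.2% of all genes. None passed at 14 months, against 1.81%, and 4 were higher and 5 lower at 24 months, so that 9 of 93 passed, against 9.7%. The genes that fell at 3 months were Brd7, a SWI/SNF subunit (log2 fold change -0.63, limma, adjusted p = 0.0134), the coactivator Ncoa3 (-0.62, 0.019) and the bromodomain reader Brd3 (-0.63, 0.0278). Those that fell at 24 months were Brms1 (-0.77), Yaf2 (-1.66), Ash2l (-1.07), Prmt5 (-0.77) and Meaf6 (-1.13), with adjusted p between 0.0196 and 0.0499 (limma). Beside Jmjd1c, Eed, a core Polycomb subunit, rose at 3 months (0.83, adjusted p = 0.0109), and the acetyltransferase Crebbp rose at 24 months (0.91, adjusted p = 0.0178). Jmjd1c, a relative of Kdm3a, passed at 3 months, with means of 48.7 FPKM in LPS mice and 31.3 FPKM in PBS mice (log2 fold change 0.62, limma, adjusted p = 0.00701), and at 24 months, with 43.3 FPKM in LPS mice and 26 FPKM in PBS mice (0.72, adjusted p = 0.00733). At 24 months the Polycomb-associated gene Asxl2 and the SWI/SNF subunit Pbrm1 were also higher in LPS mice, at 13.7 FPKM against 5.67 FPKM in PBS mice and at 16.3 FPKM against 7.67 FPKM in PBS mice (limma, adjusted p = 0.0105 for both). Asxl2 was also lower in those 24-month PBS mice than at 3 months, where it averaged 11.3 FPKM (log2 fold change -0.89, limma, adjusted p = 0.0301).

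With age 2 of the 93 passed with their largest change upward and 7 downward in females, and 1 upward and 2 downward in males. These are 9 of 93 in females, against 14.8% of all genes, and 3 of 93 in males, against 8.36%. In females the median of the largest changes was -0.45 over the 93 genes and -0.44 over all genes. Of the calls of all genes over female ages, 35.2% were upward as deposited and 64.3% after median-ratio scaling. The genes of this list were not followed under other scalings. The largest changes of Dpy30 (-1.08), Ing4 (-0.88), Tada3 (-0.82), Brd3 (-0.81), Ncoa3 (-0.79), Men1 (-0.61) and Cxxc1 (-0.60) were downward in females, and those of Brd3 (-0.62) and Crebbp (-0.61) in males. In females Prmt2, an arginine methyltransferase, had its largest change upward (0.69, limma, adjusted p = 0.0419). Sap30, a subunit of the Sin3 deacetylase complex, rose in males, to 12.3 FPKM at 16 months (log2 fold change 0.95, limma, adjusted p = 0.0467) and to 18 FPKM at 24 months, against 6 FPKM at 3 months (log2 fold change 1.38, limma, adjusted p = 0.00466). In females Sap30 passed over the 7 ages (limma, adjusted p = 0.022), with 15.3 FPKM at 24 months, against 5.25 FPKM at 3 months. Its log2 fold change at 24 months was 1.44 (adjusted p = 0.137).

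What the genes share beside their symbols was looked for in their promoters, the 300 bases around the transcription start that RefSeq gives on GRCm38.p6. Of the 34 genes 23 were in that table, Kdm6b, Chd2 and Hdac1 not among them. For the start with the most CpG dinucleotides of each gene, 22 of 23 had an observed over expected CpG ratio above 0.6, a usual mark of CpG islands, against 78.2% of 4548 other genes of the table. The median number of CpG was 27 in the members, against 22 in the other genes. The members had 37 starts for 23 genes and the other genes 5855 for 4548. Members thus offered more starts per gene to choose from, which can raise their values. The promoters of Chd9 and Sirt7, both with calls above, are shown 5′ to 3′ with each CpG in capitals.

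Chd9, chr8:90828585-90828884, plus strand: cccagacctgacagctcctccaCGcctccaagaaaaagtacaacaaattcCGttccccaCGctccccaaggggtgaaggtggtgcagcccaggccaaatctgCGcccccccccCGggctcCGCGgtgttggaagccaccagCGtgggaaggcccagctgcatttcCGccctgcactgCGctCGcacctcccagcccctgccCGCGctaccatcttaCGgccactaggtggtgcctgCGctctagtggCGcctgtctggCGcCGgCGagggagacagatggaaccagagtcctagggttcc
Chd9, chr8:90931999-90932298, plus strand: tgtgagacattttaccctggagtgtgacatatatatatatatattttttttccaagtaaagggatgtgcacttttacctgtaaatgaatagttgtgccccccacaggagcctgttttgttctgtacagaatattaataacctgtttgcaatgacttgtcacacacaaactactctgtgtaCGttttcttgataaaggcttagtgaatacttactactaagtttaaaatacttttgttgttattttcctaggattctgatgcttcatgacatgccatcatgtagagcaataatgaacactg
Sirt7, chr11:120624965-120625264, minus strand: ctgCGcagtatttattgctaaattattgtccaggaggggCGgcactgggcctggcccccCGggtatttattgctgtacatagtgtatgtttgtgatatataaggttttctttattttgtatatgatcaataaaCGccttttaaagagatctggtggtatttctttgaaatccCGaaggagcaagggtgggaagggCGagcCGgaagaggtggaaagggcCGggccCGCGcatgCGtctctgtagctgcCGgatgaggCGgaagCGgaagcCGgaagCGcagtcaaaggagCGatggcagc

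The first Chd9 start had 19 CpG in 300 bases and the second, which lies further inside the gene, had 1. Chd9 spans chr8:90828352-91054516 in GENCODE vM21, on the same assembly, and the table holds 1 value per gene, so the starts were not told apart. The Sirt7 promoter had 17 CpG, and the gene spans chr11:120618372-120625240. Kdm6b lies at chr11:69398508-69413675, Kdm5b at chr1:134560171-134635285 and Kdm2b at chr5:122870665-122989823.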

How the data were processed

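Reads were cleaned with SOAPnuke and aligned with HISAT2 2.0.4 (mm10) and Bowtie2 2.2.5 by the authors, who took FPKM from RSEM 1.2.12, ran ComBat_seq on them and dropped genes with a mean below 10. What they deposited is FPKM after batch adjustment in whole numbers, apart from 297 fractional values, and was treated as a score and not as a count. Library sums ran between 408457 and 554459. Sequencing depth is not recoverable from such values, and counting intervals were not computed.

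Groups were read from sample titles. limma 3.58.1 (R 4.3.3, variance trend) was run on log2(value + 1) in 4 fits: PBS females, PBS males, the LPS groups with their PBS controls, and both sexes at shared ages. P-values were adjusted over 5647 genes (Benjamini-Hochberg). The members, lists and tests were chosen with earlier results of these data known. Named genes are those that passed, else the 3 with the lowest p, the 5 highest and 3 lowest by mean, and the lowest F-test p of each role. Of the other chromatin genes, those described at length (Jmjd1c, Asxl2, Pbrm1 and Sap30) were picked after their values were seen. The fits were tested on simulated data. Libraries that share a replicate number were not paired, since the median correlation of their residuals was 4.26e-05 in females, -0.00444 in males, 0.0139 in the LPS fit and 0.00218 in both sexes. Alternatives were pseudocounts of 0.5 and 5, a minimum mean of 50, other scalings, no trend, a replicate block and leaving out each mouse. The alternatives at single ages other than 12 and 24 months in females and 16 and 24 months in males, and those within male libraries that hold values between 0 and 1, were chosen after seeing the data. Plots were drawn with matplotlib 3.10.9.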

Additional observations from a re-analysis of the deposited data

Results flagged for a closer look

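Within groups of 4 or 5 mice, 15 of 286 tests found 1 mouse set apart from the others by Dixon's test, and chance gives about 1 in 20. Among the demethylases, 1 female of 16 months had 49 FPKM of Kdm6b, against 14 to 24 FPKM in the others, and females of that age also held single low values of Kdm2a (8 FPKM, others 12 to 13) and Kdm5b (8 FPKM, others 12 to 13). Kdm2a reached 18 FPKM in 1 female of 3 months (others 15) and 21 FPKM in 1 male of 24 months (others 14 to 15). Kdm3b reached 15 FPKM in 1 male of 24 months (others 9), and Kdm5b 10 FPKM in 1 male of 16 months (others 7).

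Of the other roles, Hdac1 was 66 FPKM in 1 male of 9 months (others 41 to 44), and Sirt2 was 51 FPKM in 1 female of 16 months (others 70 to 76). Kat2a was 15 FPKM in 1 male of 6 months (others 8) and 15 FPKM in 1 male of 9 months, where the others had 16, the step of 1 that rounding allows. Kmt2e was 58 FPKM in 1 LPS female of 14 months (others 68 to 71). Chd2 was 19 FPKM in 1 male of 19 months (others 11 to 13), Smarca4 was 15 FPKM in 1 female of 3 months (others 19), and Smarce1 was 17 FPKM in 1 male of 24 months (others 22 to 23).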

How the results depend on the processing

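Kdm6b passed with LPS at 3 and 24 months under each alternative run except the minimum mean of 50, which removes it. The number of members that passed moved elsewhere. The share of all genes is not given beside the counts that follow, so they show nothing particular to the members. With LPS at 3 months (2 members) it was 6 with only the compared groups fitted, 1 with median-ratio or total scaling, a pseudocount of 0.5 or the replicate block, and 0 with a minimum mean of 50, which leaves 3 members. At 14 months (0) it was 1 with a pseudocount of 5, and at 24 months (3) it was 1 with that minimum or only the compared groups. Over female ages (2) it was 1 with that minimum or the replicate block and 0 with either scaling. At 9 months (1) it was 0 with that minimum, either scaling or the block. At 12 months (0) it was 3 with the compared groups alone and 2 with a pseudocount of 5, at 14 months (0) it was 1 with that pseudocount or no trend, at 16 months (4) it was 1 with a minimum mean of 50, 0 with median-ratio and 2 with total scaling, and at 24 months (0) it was 3 with the compared groups alone. Over male ages (2) it was 1 with no trend, a pseudocount of 5 or the block, and 0 with the minimum or within either set of libraries. At 16 months (1) it was 0 with the minimum, a pseudocount of 5, the block or within libraries lacking values between 0 and 1. Within the male libraries that hold such values, the largest changes over age turned upward, to 0.31 for Chd9 and 0.29 for Kdm5a. The Sirt7 log2 difference of females against males, 0.19 over 6 ages, turned to -0.38 at 16 months alone, and neither passed. The cause was not tested. Leaving out 1 mouse gave 0 to 3 members over female ages, 0 to 3 at 12 months, 0 to 1 at 9 and 14 months, 1 to 4 at 16 months, 1 to 3 over male ages, 0 to 1 at 16 months in males, and 1 to 3, 0 to 1 and 1 to 5 with LPS at 3, 14 and 24 months. The largest change of Chd9 over male ages then ran between -0.83 and 0.70 and that of Kdm5a between -0.44 and 0.37 (0.31, 0.35 and 0.36 in other fits). With median-ratio scaling the share of all calls that were higher was 54.5% at 12 months in females, against 14.5% as deposited, 64.3% against 35.2% over female ages, and 75.7% against 54.8%, 65.0% against 77.5% and 71.1% against 44.0% with LPS at 3, 14 and 24 months. Depth is unknown, and rounding limits genes near 10 FPKM.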
